A study of Mus musculus with 34 samples.

Results

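The 78 genes described here encode proteins of the mitochondrial ribosome. They are all genes whose symbol is Mrpl or Mrps followed by a number and at most 1 letter, 49 Mrpl and 29 Mrps, and all 78 were found in each deposited table, among 49686 genes for zygotes and late 2-cell embryos and 51734 for blastocysts. The rule reads the symbol alone. The mitochondrial ribosome is a separate ribosome inside mitochondria that makes the core subunits of the respiratory chain from the mitochondrial genome. Its small subunit holds and reads the mRNA, and its large subunit joins the amino acids. All of its proteins are encoded in the nucleus, made in the cytoplasm and imported, so their mRNAs are nuclear transcripts like any other. Some descend from bacterial ribosomal proteins and others were added in mitochondria. By textbook knowledge, 16 members are small-subunit proteins with a bacterial homologue and 10 are small-subunit proteins specific to mitochondria. A further 29 are large-subunit proteins with a bacterial homologue and 22 are large-subunit proteins specific to mitochondria, among them Mrps30 and Mrps18a in spite of their names. Mrps36, now known as a part of the 2-oxoglutarate dehydrogenase complex, was left unclassified.

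The study injected mouse zygotes with mRNA for CHK1, a kinase of the DNA damage checkpoint, in its wild-type form (WT) or as the mutant R442Q. Each library was 1 embryo without its zona pellucida. The zygotes numbered 5 with WT and 6 with R442Q, and the late 2-cell embryos 4 with WT and 5 with R442Q, all without inhibitor; the blastocysts, 7 of each, had grown with a Chk1 inhibitor at 30 nM. The labels give no strain, and the injected CHK1 came on top of the embryo's own gene in every group, so WT is an overexpression control; uninjected embryos were not analysed here. Late 2-cell is the time at which the mouse embryo replaces the mRNA stored in the egg with transcripts of its own genome.

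A zygote held 7183632 to 11296522 counts in total and a late 2-cell embryo 5727956 to 8916343. Blastocyst depth is unknown, since only FPKM was used there. The summed FPKM of the egg transcripts Zp3, Gdf9, Bmp15 and Oosp1 had a median of 4747 in WT zygotes, 1472 in WT late 2-cell embryos and 0 in WT blastocysts. In R442Q the sum did not separate zygotes from late 2-cell embryos, with medians of 4046 and 4006: Oosp1 had medians of 2744 and 3691 FPKM, while those of Bmp15 were 993 and 107 and those of Gdf9 270.2 and 53.8. The late 2-cell transcripts Zscan4c, Zscan4d, Zfp352 and Tdpoz4 summed to at most 63.1 FPKM in zygotes and at least 63.2 in late 2-cell embryos, and 6 blastocyst markers summed to a median of 2893 in WT blastocysts against 13.9 in WT zygotes. Markers of cumulus cells, which can cling to a zygote, summed to at most 2.47 FPKM in zygotes and 22.0 in late 2-cell embryos, with Pgr at 0 in every embryo of both stages. Most of the late 2-cell sum was Tnfaip6, and its medians were higher in R442Q than in WT at both stages: it reached 1.83 FPKM in R442Q zygotes and 0.15 in WT zygotes, and 19.7 in R442Q late 2-cell embryos (median 4.35) against 7.06 in WT (median 1.46). The part of this in the results was not tested. WT late 2-cell replicate 3 stood apart with 3076 FPKM of the egg list, against 1184 to 1515 in the other WT late 2-cell embryos; the R442Q late 2-cell embryos held 1600 to 6846. A library is a whole embryo and a level is a share of its RNA, so less RNA of a gene, more RNA of others and, in blastocysts, fewer cells of a type cannot be told apart. Embryos of a group are separate embryos by their labels, but nothing says whether they came from separate litters or injection days.

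Members share features that bear on their measurement. They are short transcripts, with a median length of 1073 bases against 1723 for all genes tested in late 2-cell embryos, and a median GC content of 51.2% against 49.9%. They lie on 17 chromosomes, with 11 of them on chromosome 11. In the GENCODE M21 annotation the spans of 36 of the 78 overlap that of an opposite-strand gene, introns included. Where the transcripts themselves overlap, reads from the pair cannot be told apart unless strand was used in counting. A further kind of doubt is sequence in common with another gene. There were 12 members with at least 10% of their 50-base stretches also in another gene, up to 82.0% for Mrpl53, and 33 with none. The 12 are Mrpl22, Mrpl23, Mrpl27, Mrpl41, Mrpl53, Mrps6, Mrps18b, Mrps18c, Mrps24, Mrps33, Mrps34 and Mrps36.

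Promoters of members carry known motifs of housekeeping and mitochondrial genes more often than promoters at large. RefSeq windows (GRCm38.p6) from 250 bases before to 50 bases after a start were matched for 69 of the 78 members, in 75 windows, and compared with all 32851 windows. CCGGAAG, the core of ETS-family sites such as those of GABPA, was found on either strand in 34.7% of member windows and 8.86% of all. The NRF1 motif, GCGC followed by any base and TGCGC, stood in 17.3% against 4.60%, and AAGATGGCG, a YY1 site, in 10.7% against 1.40%. TATAAA was found in 6.67% against 13.6%. Member windows were also richer in GC, with a median of 58.7% against 52.7%, and all the motifs but the last hold more G and C than A and T; a match is a run of letters and not a bound site. The 100 bases just upstream of the annotated start of 5 members that the results turn on are printed on the strand of the gene, 5′ to 3′, with matches to these motifs in capitals. Such a stretch was found for 15 of the members named below, of which 5 held an ETS core, NRF1 or YY1 motif, 1 held TATAAA alone and 9 held none. The 5 printed were picked to show different cases, and not in these proportions: an NRF1 site for Mrpl9, an ETS core for Mrps22, a pair of them for Mrpl43, a TATAAA for Mrpl16, and none of the motifs for Mrps14. All lie outside annotated exons of their gene.
Mrpl9: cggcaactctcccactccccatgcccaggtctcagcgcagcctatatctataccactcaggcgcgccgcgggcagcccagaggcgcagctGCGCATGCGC
Mrps22: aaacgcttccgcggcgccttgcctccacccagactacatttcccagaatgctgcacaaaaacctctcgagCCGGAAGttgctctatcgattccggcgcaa
Mrpl43: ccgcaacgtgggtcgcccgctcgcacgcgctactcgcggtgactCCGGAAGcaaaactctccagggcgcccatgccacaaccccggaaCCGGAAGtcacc
Mrpl16: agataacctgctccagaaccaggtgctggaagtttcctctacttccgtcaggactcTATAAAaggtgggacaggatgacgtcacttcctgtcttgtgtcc
Mrps14: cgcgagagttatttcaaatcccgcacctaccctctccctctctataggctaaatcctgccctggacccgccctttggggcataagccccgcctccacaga
The Mrpl9 stretch is chr3:94443218-94443317 on the plus strand, and its NRF1 site ends directly at the annotated start. The Mrps22 stretch is chr9:98601661-98601760 on the minus strand, with 23 bases between the ETS core and the start. The Mrpl43 stretch is chr19:45006443-45006542 on the minus strand, inside the annotated span of Twnk, the mitochondrial DNA helicase gene, which overlaps Mrpl43 on the opposite strand, and its ETS cores lie 49 and 5 bases from the start. The Mrpl16 stretch is chr19:11770291-11770390 and the Mrps14 stretch chr1:160195115-160195214, both on the plus strand.

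On average, mitochondrial ribosomal protein mRNA took up a larger share of the transcriptome at each later stage, but WT late 2-cell replicate 3 lay within the range of WT zygotes. Stage and deposited table, and in blastocysts also the inhibitor, cannot be told apart. Summed over the 78 members on the TPM scale, on which the FPKM of all genes of a library add up to the same total in every embryo, WT zygotes held 4892, 5134, 4833, 4452 and 4705, a mean of 4803 ± 251 (SD, n = 5). R442Q zygotes held from 3678 to 4239 with a median of 4003 and a mean of 3964 ± 203 (SD, n = 6). Every R442Q zygote lay below every WT zygote. WT late 2-cell embryos held 6755, 7090, 4641 and 6832, and R442Q late 2-cell embryos 9279, 6074, 5725, 7796 and 8987. Here the genotypes overlapped, with means of 6330 ± 1135 (SD, n = 4) and 7572 ± 1630 (SD, n = 5), and the low WT value belonged to replicate 3, the WT late 2-cell embryo with the highest egg sum. Blastocysts held 12231 ± 1370 in WT (SD, n = 7) and 12345 ± 1205 in R442Q (SD, n = 7), and overlapped almost wholly. The sums are given without a test and without removal of the length and GC trend treated below.

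**Figure D1:**
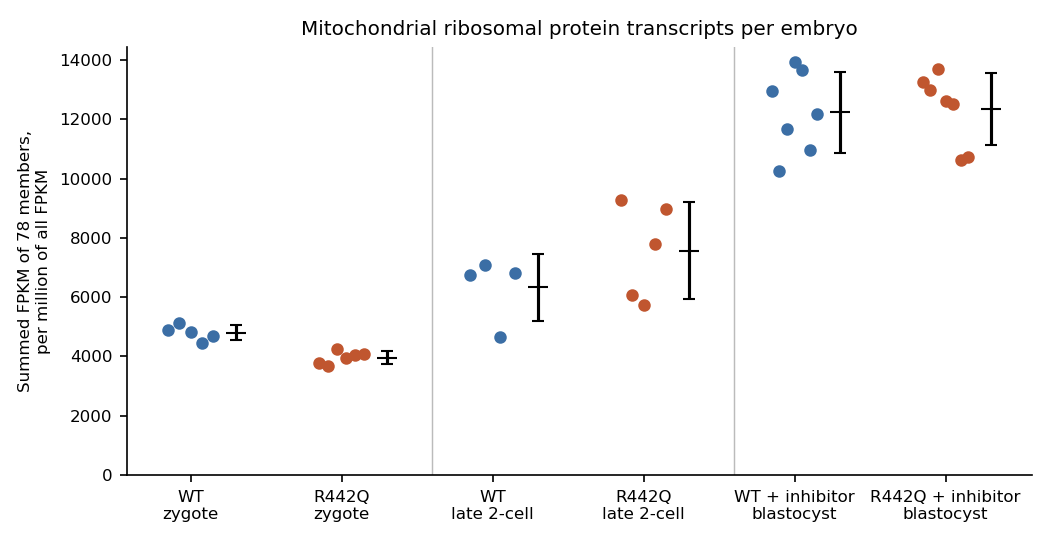
Summed level of the 78 members on the TPM scale, that is FPKM relative to all FPKM of the library (vertical axis, linear from 0) in each embryo of the 6 groups, 1 point per embryo, with the group mean and SD as a black bar beside the points. The WT zygotes, from 4452 to 5134, lie above all R442Q zygotes, from 3678 to 4239, while both blastocyst groups lie between 10263 and 13928.

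Zygotes that received R442Q held less mRNA of some members than zygotes that received WT. Mrps34 had too few counts to test. Of the other 77 members, 12 were lower and 2 higher in R442Q (edgeR quasi-likelihood test, Benjamini-Hochberg adjusted p under 0.05 over all 12420 genes tested). That is 15.6% lower, where 6.92% of all genes tested were lower, and 2.60% higher, where 6.3% were; 13.2% of all genes passed in either direction. The median log2 fold change, R442Q minus WT, was -0.25 over the members and 0.01 over all genes, and 26 of 77 members had a positive value where 50.6% of all genes did. Late 2-cell transcripts differed with the genotype too, in sum: Zscan4c, Zscan4d, Zfp352 and Tdpoz4 summed to 3.90 to 5.75 FPKM in WT zygotes and to 8.95 to 63.1 in R442Q zygotes. Zscan4c (0.07 to 1.40 and 1.91 to 18.0) and Zscan4d (0.88 to 3.57 and 4.47 to 29.9) did not overlap, while Zfp352 (0.32 to 4.62 and 1.91 to 15.2) and Tdpoz4 (0 to 0.25 and 0 to 0.15) did. The egg list summed to 4430 to 6044 FPKM in WT zygotes and 3136 to 4502 in R442Q zygotes. Within it Zp3 (74.8 to 123 FPKM in WT, 21.2 to 49.98 in R442Q) and Oosp1 (3016 to 4319 and 1949 to 2930) did not overlap, while Gdf9 (276 to 569 and 205 to 411) and Bmp15 (931 to 1104 and 961 to 1311) did. The part of these in the result was not tested.

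The large-subunit proteins with a bacterial homologue held most of the lower members, 7 of 29, with 1 of 29 higher and a median of -0.32. Classes were not tested against each other. Over all classes, 9 of the 77 members tested were lower and 2 higher without overlap between the genotypes. Of all genes tested, 4.67% were lower and 4.04% higher without overlap. Mrpl9, which in bacteria lies at the base of the large subunit's stalk, stood at 83.5, 88.6, 145, 105 and 155 CPM (counts relative to library size, scaled within the stage) in WT zygotes. In R442Q zygotes it ran from 50.9 to 66.8 CPM with a median of 58.6. The groups did not overlap, and the log2 difference was -0.98 ± 0.16 (SE; edgeR adjusted p 0.0010). Mrpl47, a protein near the exit of the tunnel through which the new chain leaves, stood at 65.6, 78.6, 57.6, 56.2 and 61.4 CPM in WT and from 20.2 to 40.5 with a median of 35.5 in R442Q. It was lower by a log2 of -0.93 ± 0.16 (SE; edgeR adjusted p 0.0018), again without overlap. Mrpl4, which lines that tunnel, stood at 54.7, 44.5, 42.8, 46.9 and 41.2 CPM in WT and from 13.0 to 35.8 with a median of 25.4 in R442Q (log2 -0.94 ± 0.21 SE, edgeR adjusted p 0.0065). The other lower members of this class were Mrpl18, Mrpl21, Mrpl22 and Mrpl34, with log2 fold changes from -0.96 for Mrpl22 to -0.41 for Mrpl18. Of the 22 large-subunit proteins specific to mitochondria none passed, and 4 had an unadjusted p under 0.05, where 27.1% of all genes had one.

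Among small-subunit proteins, 4 of the 9 tested that are specific to mitochondria were lower, with a median of -0.44. Of the 16 with a bacterial homologue none was lower and 1 was higher. Of all genes tested 6.92% were lower and 6.3% higher, and these classes too were not tested against each other. Mrps31 fell furthest of all called members. It stood at 27.2, 27.1, 21.2, 20.1 and 14.2 CPM in WT zygotes and from 6.01 to 12.5 with a median of 8.09 in R442Q zygotes. The lowest WT zygote lay above the highest R442Q zygote, and the log2 difference was -1.37 ± 0.23 (SE; edgeR adjusted p 0.0011). Mrps22, Mrps18b and Mrps35 were lower by log2 values of -0.67, -0.53 and -0.81, and the unclassified Mrps36 by -0.84. The exception was Mrps14, a protein in the head of the small subunit. It stood at 80.5, 102, 128, 87.5 and 107 CPM in WT and from 144 to 175 with a median of 157 in R442Q. All R442Q zygotes lay above all WT zygotes, and the log2 difference was 0.66 ± 0.12 (SE; edgeR adjusted p 0.0026).

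Mrpl3, a core protein of the large subunit, was the other higher member, with 80.5, 104, 130.5, 86.9 and 112 CPM in WT and 131 to 150, median 135, in R442Q. Its groups stood just apart, 0.42 ± 0.13 apart on the log2 scale (SE; edgeR adjusted p 0.034), and it lost its call in 5 of 11 fits without 1 zygote, with an adjusted p of up to 0.10004 without WT replicate 1. It also lost it on FPKM with limma, with no low-count filter, with the length and GC trend removed, with a block on the replicate numbers and in the fit of both stages together. The calls for Mrps14, Mrpl9, Mrps31, Mrpl47 and Mrpl4 held without any 1 zygote. On FPKM with limma, 21 of 76 members (27.6%) were lower and 1 higher, and the calls over all genes were also more one-sided, with 10.4% lower and 3.47% higher. In a fit together with the late 2-cell embryos, in which all 4 groups share 1 estimate of spread, 1 member of 78 (1.28%) passed, as higher, where 1.22% of all genes did, and the 5 just named had adjusted p from 0.078 for Mrps14 to 0.459 for Mrps31.

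In late 2-cell embryos most members had the opposite sign, but few single members passed. Of 78 members tested 3 were higher in R442Q and none lower (edgeR quasi-likelihood test, adjusted p under 0.05), that is 3.85% higher where 1.22% of all genes were higher and 2.95% lower, 4.18% in either direction. At an unadjusted p under 0.05 there were 19 members, or 24.4%, where 21% of all genes were, a share near the background. The genotypes did not overlap for 8 members that were higher (4.39% of all genes) and for 1, Mrps27, that was lower (7.58%). A positive log2 fold change was seen for 69 of 78, or 88.5% of members, and for 52.7% of all genes; the medians were 0.55 and 0.07. With FPKM scaled to the same sum the medians were 0.21 and -0.19 and no member passed. The FPKM sum itself differed between the genotypes, from 712230 to 742250 in WT and from 814380 to 976830 in R442Q, without overlap. Zscan4c, Zscan4d, Zfp352 and Tdpoz4 summed to 63.2 to 494 FPKM in WT and 308 to 762 in R442Q, and the egg list to 1184 to 3076 and 1600 to 6846. Oosp1 made up most of the latter, with medians of 1270 FPKM (1269.5) in WT and 3691 in R442Q; the medians of Bmp15 were 71.2 and 107, and those of Zp3 (72.7 and 57.9) and Gdf9 (86.5 and 53.8) lay lower in R442Q. The part of these in the result was not tested.

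Mrpl15 (chr1:4773206-4785739, minus strand, GRCm38), a large-subunit protein with a bacterial homologue, showed the clearest difference. It stood at 64.0, 88.9, 64.5 and 106 CPM in WT late 2-cell embryos and at 259, 203, 276, 201 and 212 CPM in R442Q. Every R442Q embryo held more than every WT embryo, and the log2 difference was 1.51 ± 0.29 (SE; edgeR adjusted p 0.013). In zygotes Mrpl15 overlapped between the genotypes, at 33.2 ± 8.59 CPM in WT (SD, n = 5) and 40.5 ± 6.40 in R442Q (SD, n = 6). The late 2-cell call held in all 9 fits without 1 embryo, with adjusted p from 0.016 to 0.050 (0.0497 without WT replicate 2). It was lost on FPKM with limma (log2 1.24 ± 0.37 SE, adjusted p 0.070), on FPKM scaled to equal sums (log2 0.96 ± 0.36 SE, adjusted p 0.129) and with the replicate block.

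Mrpl16, which in bacteria sits close to the peptide-joining centre, stood at 41.1, 37.1, 27.2 and 36.6 CPM in WT late 2-cell embryos and at 86.5, 74.2, 71.8, 107 and 77.6 CPM in R442Q. The groups were again apart, by a log2 of 1.23 ± 0.30 (SE; edgeR adjusted p 0.033). Mrps22, a mitochondria-specific protein of the small subunit, stood at 59.4, 44.9, 48.8 and 47.8 CPM in WT and at 112, 108, 79.6, 114 and 129 CPM in R442Q (log2 1.11 ± 0.28 SE, edgeR adjusted p 0.041). Mrpl49, a mitochondria-specific large-subunit protein, stood at 48.0, 27.3, 43.5 and 59.4 CPM in WT and at 109, 93.6, 60.8, 90.8 and 196 in R442Q; it did not pass (log2 1.31 ± 0.38 SE, edgeR adjusted p 0.066). Mrpl16 lost its call in 7 of 9 fits without 1 embryo and Mrps22 in 8 of 9, with adjusted p of up to 0.108 and 0.147, both without WT replicate 2. Both passed on FPKM with limma (adjusted p 0.033 and 0.039). They did not with equal FPKM sums (0.071 and 0.097), with no low-count filter, with the length and GC trend removed or with the replicate block. Without R442Q replicate 3 there were 6 members past the threshold (6.76% of all genes), and without WT replicate 3 there was 1 (1.95% of all genes).

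**Figure D2:**
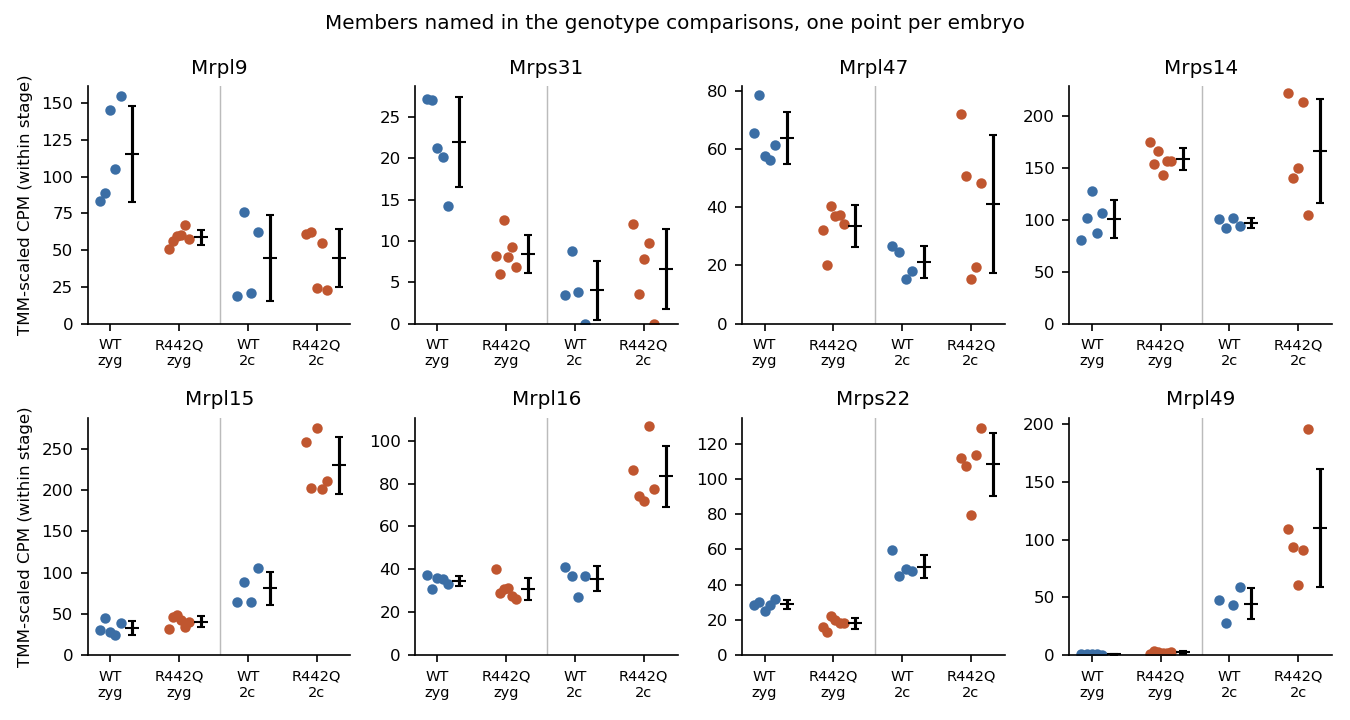
CPM scaled within the stage (vertical axes, linear from 0) of 8 members by genotype and early stage, with embryos as points and the mean and SD beside them. Mrpl9, Mrps31 and Mrpl47 lie lower in R442Q zygotes and Mrps14 higher, while Mrpl15, Mrpl16, Mrps22 and Mrpl49 stand above all WT embryos in R442Q late 2-cell embryos.

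A model with all 4 groups, in which these share 1 estimate of spread, tested the difference between these differences. In that model the genotype difference itself passed for 1 member in zygotes and 12 in late 2-cell embryos (1.67% and 15.5% of all genes). With each stage fitted alone 14 and 3 members passed (13.2% and 4.18%). For 11 of 78 members the R442Q minus WT difference was higher in late 2-cell embryos than in zygotes, and for none lower (edgeR interaction, adjusted p under 0.05). That is 14.1% of members in the higher direction, where 3.07% of all genes went that way and 7.05% the other. The median interaction was 0.60 over members and -0.16 over all genes. Large-subunit proteins with a bacterial homologue made up 8 of the 11, out of 29 such members. Mrps22 had the smallest p. It was lower in R442Q zygotes (28.4, 30.3, 24.9, 28.4 and 31.7 CPM in WT, 12.9 to 22.2 with a median of 18.4 in R442Q) and higher in R442Q late 2-cell embryos as given above, so its genotype groups did not overlap at either stage, in opposite order. Its interaction was a log2 of 1.70 ± 0.30 (SE; edgeR adjusted p 9.1e-04). Mrpl16 changed with the stage by 1.31 ± 0.29 (SE; edgeR adjusted p 0.0057), from overlapping zygotes (34.5 ± 2.53 CPM in WT, SD, n = 5, and 30.8 ± 5.02 in R442Q, SD, n = 6) to separate late 2-cell groups.

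Mrps33, a small-subunit protein specific to mitochondria, had an interaction of 1.35 ± 0.33 (SE; edgeR adjusted p 0.012). With the trend on length and GC removed it did not pass (0.66, adjusted p 0.27). Zygotes held 156 ± 15.2 CPM with WT (SD, n = 5) and 137 ± 16.6 with R442Q (SD, n = 6). The values were 26.2, 35.2, 18.5 and 29.1 CPM in WT against 85.7, 45.3, 33.8, 76.5 and 84.1 CPM in R442Q late 2-cell embryos. Only R442Q replicate 3 fell within the WT range, and 13.3% of the 50-base stretches of Mrps33 also occur in Gm5776. Mrpl47 had an interaction of 1.79 ± 0.47 (SE; edgeR adjusted p 0.018): lower in R442Q zygotes, it stood at 26.8, 24.7, 15.2 and 18.2 CPM in WT late 2-cell embryos and at 72.1, 50.7, 15.2, 19.4 and 48.2 CPM in R442Q, with R442Q replicates 3 and 4 in or at the edge of the WT range. The other 7 were Mrpl15, Mrpl21, Mrpl22, Mrpl27, Mrpl32, Mrpl35 and Mrpl41, with values from 1.14 for Mrpl15 to 1.91 for Mrpl27. Those of Mrpl22, Mrpl27 and Mrpl41 carry a doubt, since part of their stretches lie in other genes (22.4% in Gm6997, 22.3% in Gm6304 and 11.3% in Gm6434). Without R442Q late 2-cell replicate 3, 22 members passed, or 28.2%, where 14.6% of all genes passed in either direction. Without replicate 2 of that group 17 passed, or 21.8%, where 10.4% did. With the replicate block 1 member passed, where 2.9% of all genes did, and Mrpl16, Mrps33 and Mrpl47 were not called.

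**Figure D3:**
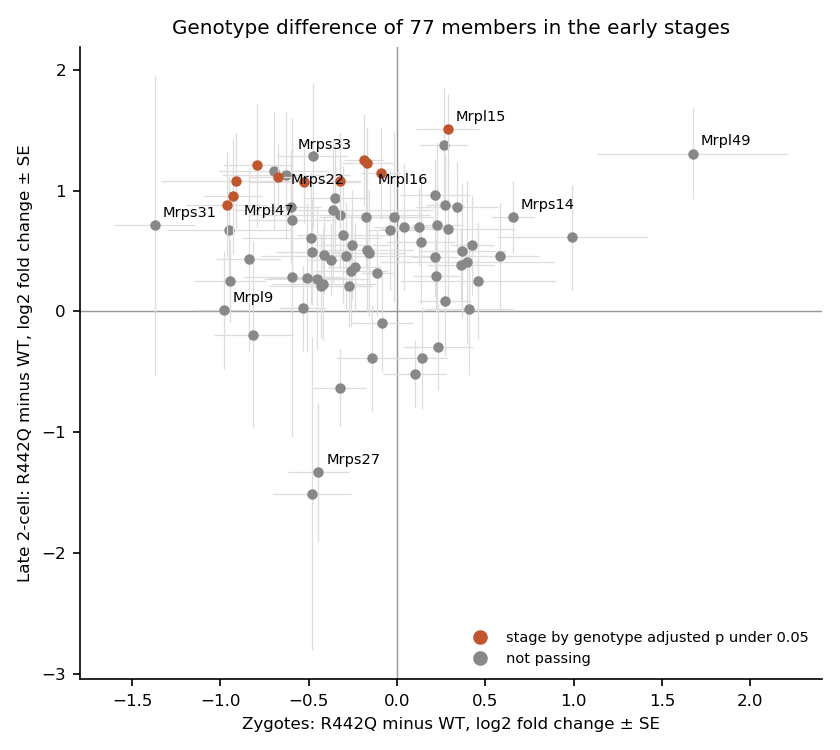
R442Q minus WT log2 fold change with SE in zygotes (horizontal axis) and in late 2-cell embryos (vertical axis) of the 77 members tested at both stages, with the 11 members whose difference changed between stages (interaction adjusted p under 0.05) in orange and the others in grey. Most points lie above 0 on the vertical axis, and 45 lie left of 0 and above 0, where Mrps22, Mrpl47 and Mrps31 also lie.

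From zygote to late 2-cell the members did not move as 1 block. In WT embryos 34 of 78 rose and 21 fell (edgeR, adjusted p under 0.05), that is 43.6% and 26.9%, where 36.2% of all genes rose and 25% fell. In R442Q embryos 43 rose and 14 fell, 55.1% and 17.9%, where 35.3% and 29.8% of all genes did. Rises in both genotypes were seen for 33 members and falls in both for 13, and none rose in one and fell in the other. Of all genes 28.9% rose in both, beside 42.3% of members, 20.5% fell in both, beside 16.7%, and 0.568% went in opposite directions. With the dependence on transcript length and GC removed from each embryo there were 24 rises and 27 falls in WT (30.8% and 34.6% of members, 31.1% and 31.1% of all genes) and 34 and 19 in R442Q (43.6% and 24.4% of members, 33.5% and 30.8% of all genes). The WT shares were then near those of all genes. This took the WT median from 0.52 to 0.0046 and the R442Q median from 1.09 to 0.64, and the medians of all genes from 0.34 to -0.05 and from 0.22 to 0.09. Stage and deposited table cannot be told apart here.

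The risers were led, in both genotypes, by the same 5 members: Mrps34, Mrpl49, Mrpl20, Mrpl43 and Mrpl41. On CPM scaled over both stages, Mrpl43, a mitochondria-specific large-subunit protein, went from 3.95, 2.25, 3.01, 0.81 and 2.15 in WT zygotes to 85.9, 74.7, 75.01 and 113 in WT late 2-cell embryos. That is a log2 change of 5.15 ± 0.50 (SE; edgeR adjusted p 6.2e-09) in WT and of 5.80 ± 0.47 (SE) in R442Q. Mrpl20, which in bacteria is needed to build the large subunit, went from 0.84, 2.25, 3.76, 1.90 and 1.24 to 91.4, 151, 44.2 and 126 CPM in WT. Its log2 change was 5.68 ± 0.48 in WT and 5.21 ± 0.42 in R442Q (SE). Mrpl49 went from 0.23 to 0.96 CPM in WT zygotes to 26.8 to 57.3 CPM (log2 5.90 ± 0.48 SE), and Mrpl41 from 5.77 to 10.4 to 58.9 to 114 CPM (log2 3.56 ± 0.33 SE). With the length and GC trend removed the WT changes were smaller, at 3.94 for Mrpl43, 4.99 for Mrpl20, 5.17 for Mrpl49 and 2.58 for Mrpl41, and all 4 still passed. Each of these 4 was low in every zygote and at least several times higher in every late 2-cell embryo of both genotypes. Mrps34, needed for a stable small subunit, was listed at 0 in 3 of 5 WT and 3 of 6 R442Q zygotes, where a count of 0 allows up to 0.405 CPM (3 counts, WT), and stood at 28.5, 12.2, 5.28 and 36.4 CPM in WT late 2-cell embryos. Its fitted log2 change of 6.79 ± 1.21 (SE; edgeR adjusted p 4.3e-05) rests on at most 5.14 counts in a WT zygote and was 8.05 without WT zygote replicate 1 and 5.55 with the length and GC trend removed, and 34.2% of its stretches also lie in its overlapping neighbour Nme3.

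Of the members that fell, Mrpl48 and Mrps33 were the most abundant per length in WT zygotes. Mrpl48, a mitochondria-specific large-subunit protein, went from 243, 248, 221, 243 and 231 CPM in WT zygotes to 27.1, 27.9, 32.4 and 34.1 in WT late 2-cell embryos. It fell by a log2 of -2.97 ± 0.22 (SE; edgeR adjusted p 9.5e-11) in WT and -2.62 ± 0.19 (SE) in R442Q. Mrps33 went from 152, 173, 188, 143 and 151 to 25.1, 34.4, 17.7 and 28.1 CPM in WT (log2 -2.62 ± 0.27 SE). Mrps35 fell by -2.59 ± 0.45 and Mrps36 by -2.94 ± 0.51 in WT (SE), and both were also among the 5 largest falls in R442Q, with -2.06 ± 0.40 and -1.74 ± 0.44 (SE); with the length and GC trend removed the latter was -2.78. Mrps31 was the fifth in WT, with -2.53 ± 0.86 (SE), at 0 to 8.54 CPM in late 2-cell embryos; without WT late 2-cell replicate 2 its value was -3.41 ± 0.98 (SE). In R442Q the list was completed by Mrps5 (log2 -3.56 ± 0.73 SE), from 11.1 to 21.8 CPM in zygotes to 0 to 2.66 in late 2-cell embryos, and Mrps27, an RNA-binding small-subunit protein (log2 -2.50 ± 0.33 SE), from 24.6 to 43.5 to 2.63 to 9.90 CPM.

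By class the change ran as follows, with no test between classes, beside 36.2% rising and 25% falling over all genes in WT; these are values before removal of the length and GC trend. In WT, 6 of the 10 mitochondria-specific small-subunit proteins fell and 3 rose, with a median of -1.45, while 8 of the 16 small-subunit proteins with a bacterial homologue rose and 2 fell, with a median of 1.004. Large-subunit proteins specific to mitochondria had 13 of 22 rising and 3 falling (median 1.12), and those with a bacterial homologue 10 of 29 rising and 9 falling (median 0.26). In R442Q the medians were, in the same order, -0.44, 1.35, 1.21 and 1.26.

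**Figure D4:**
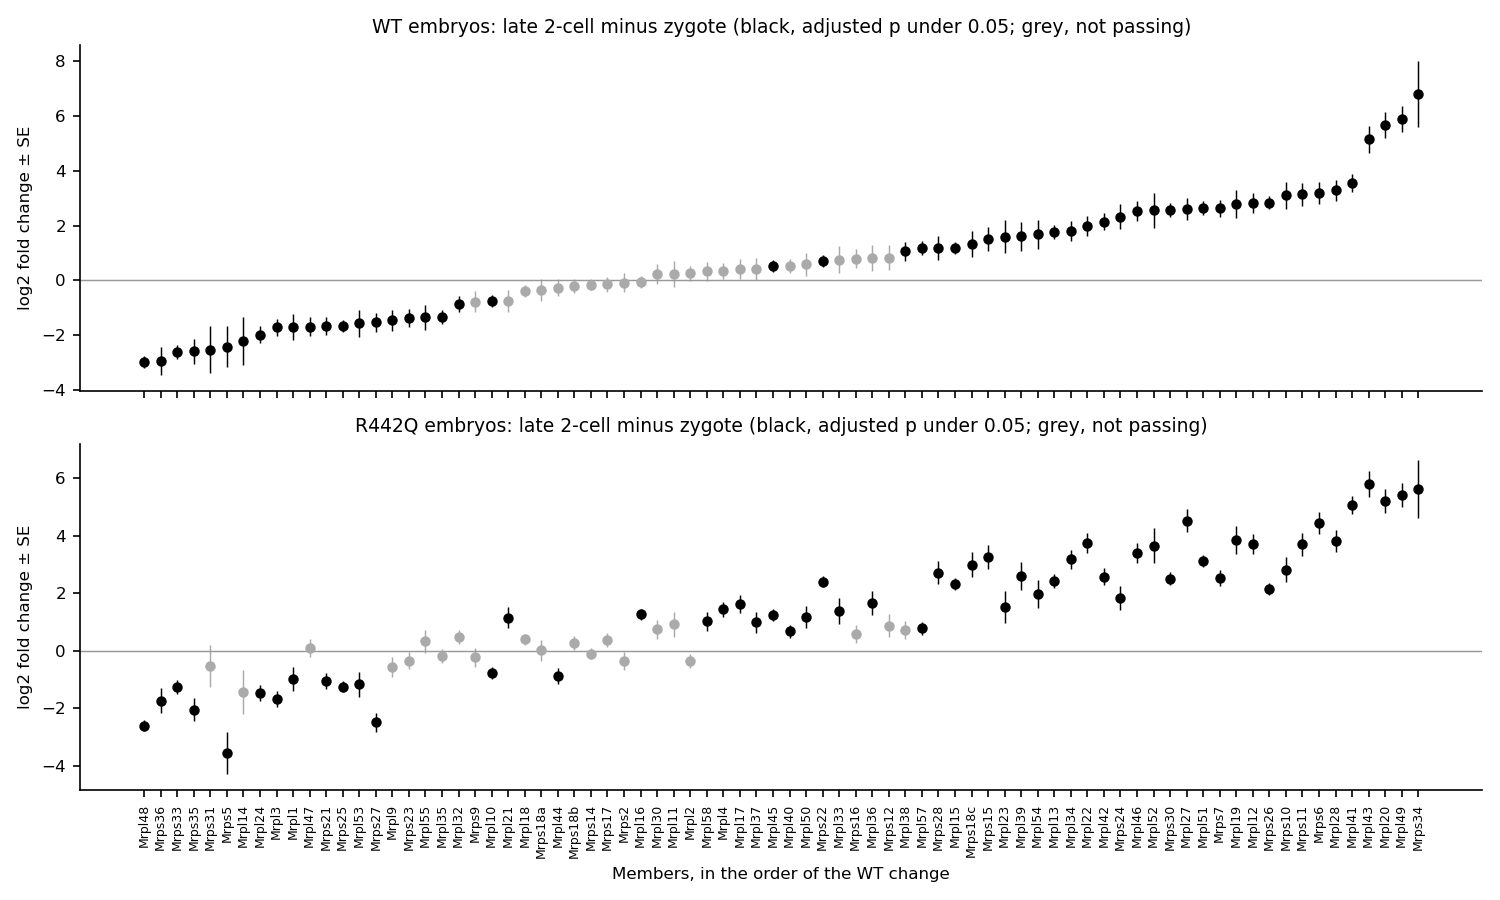
Log2 fold change from zygote to late 2-cell with SE (vertical axes) of each of the 78 members in WT (top) and R442Q embryos (bottom), in the order of the WT change, black where the adjusted p is under 0.05 and grey where not. The order runs from Mrpl48 at -2.97 to Mrps34 at 6.79 in WT, and the lower panel, in the same order, holds 43 rises and 14 falls.

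In blastocysts, where both genotypes had grown with the inhibitor, no member passed. All 78 were tested on log2(FPKM + 1) with limma, and 0 passed an adjusted p of 0.05; 5 had an unadjusted p under 0.05, or 6.41% of members, where 7.4% of all genes did. Of all 11297 genes 1 passed, or 0.00885%. The median log2 difference was 0.05 over members and -0.10 over all genes, and single members ranged from -0.52 to 0.47. Values above 0 were seen for 47 of 78, or 60.3%, where 40.7% of all genes had them. With equal FPKM sums the members' median was -0.02, so its sign depends on the scaling. Mrpl14, a large-subunit protein with a bacterial homologue, had the smallest p. It ran from 139 to 192 FPKM with a median of 172 in WT and from 98.5 to 130 with a median of 123 in R442Q. The groups did not overlap, which held for 7 genes, 0.0620%, in this direction among all tested (0.354% in the other, with no member among them), but the difference of -0.47 ± 0.15 (SE) did not pass (limma adjusted p 0.323). Mrpl33, Mrpl13 and Mrpl57 followed with differences of 0.34, 0.43 and 0.40, overlapping groups and limma adjusted p of 0.604, 0.618 and 0.631. A p above the threshold does not show that levels were alike.

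Levels per length give the order of members within a stage. In WT zygotes mean FPKM ran from 0.10 for Mrps34, 0.46 for Mrpl49 and 1.18 for Mrpl23 to 175 ± 12.8 for Mrpl18, 227 ± 17.2 for Mrpl48 and 238 ± 28.6 for Mrps33 (SD, n = 5). Mrpl48 and Mrps33 did not differ beyond their spread. In WT late 2-cell embryos the lowest were Mrpl23 (2.62), Mrpl1 (2.79) and Mrps31 (2.83) and the highest Mrpl20 (222.3 ± 91.0), Mrps6 (228 ± 55.5) and Mrpl34 (284 ± 37.7, SD, n = 4), 3 levels within their spread. In WT blastocysts the lowest were Mrpl1 (18.6 ± 5.75), Mrpl50 (21.4 ± 6.41) and Mrpl16 (26.9 ± 3.84), and the highest Mrps21 (420 ± 79.3), Mrpl42 (508 ± 154) and Mrpl17 (558 ± 163, SD, n = 7). None of the stages shares a top member with another, and the median over members was 23.2, 39.4 and 137 FPKM in turn. No member was at 0 in all embryos of a stage.

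From late 2-cell to blastocyst most members took up a larger share, though stage, inhibitor and table cannot be told apart and no test was made. On the TPM scale, 46 of 78 members, 59.0%, were higher in every WT blastocyst than in every WT late 2-cell embryo, where 13.8% of all genes were, and 7 members, 8.97%, were lower, where 33.4% were. In R442Q 35 members (44.9%) were higher, where 11.5% of all genes were, and 5 (6.41%) were lower, where 24.9% were. As a ratio, on the log2 scale, Mrpl14 made the largest step, from 5.996 ± 3.19 (SD, n = 4) to 160 ± 14.7 (SD, n = 7) in WT, followed by Mrpl23, from 3.56 ± 2.19 to 66.4 ± 13.5. Mrps5 and Mrps35, which were low in late 2-cell embryos, stood at 95.6 ± 23.6 and 102 ± 32.7 in WT blastocysts. The 7 lower members in WT were Mrpl16, Mrpl32, Mrpl41, Mrpl57, Mrps6, Mrps7 and Mrps26. Mrpl57, in the large subunit, went from 241 ± 52.8 to 48.6 ± 10.1, the largest step down.

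**Figure D5:**
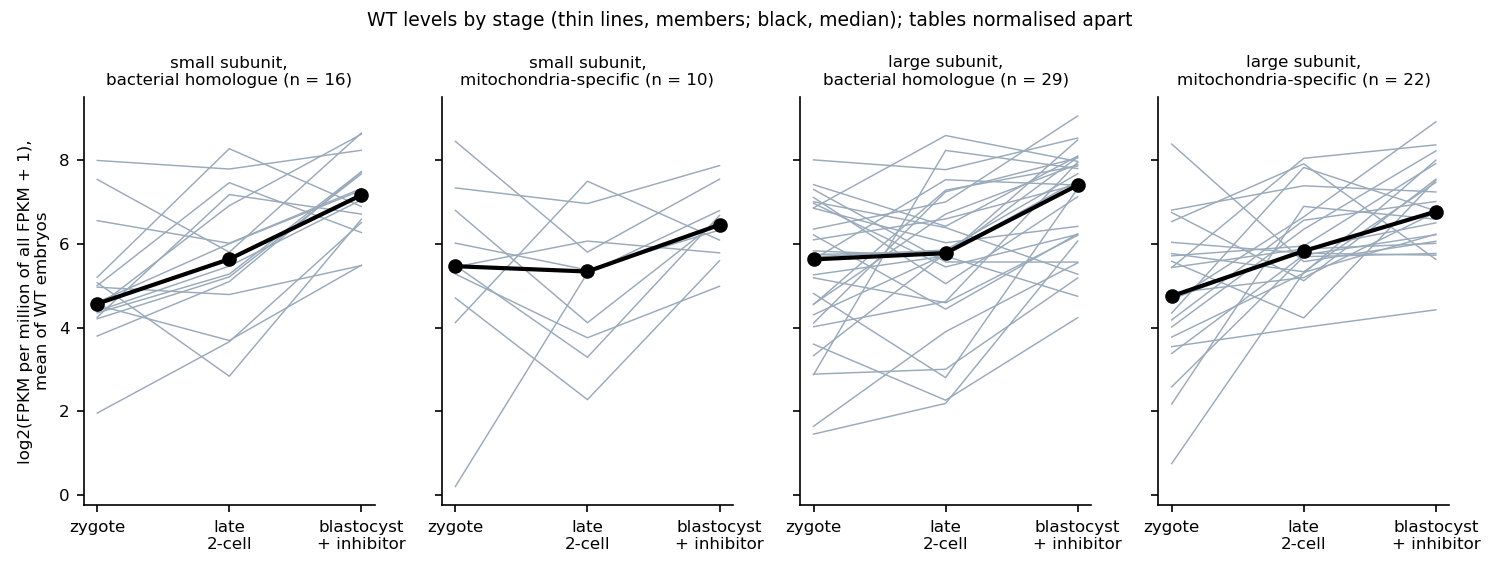
Mean level of each member in WT embryos at 3 stages, as log2(TPM-scale level + 1) on the vertical axis, in panels by subunit and origin, with members as thin lines and their median in black. The medians end highest in blastocysts in all 4 panels, and that of the mitochondria-specific small-subunit proteins is slightly lower at the late 2-cell stage than in zygotes.

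Other genes of mitochondrial translation were looked at in lists, which were not tested against the members. In zygotes the median R442Q minus WT log2 fold change was -0.27 over 5 other mitoribosome subunits, -0.25 over 12 translation factors and -0.02 over 20 assembly and rRNA modification genes, beside -0.25 over the members. In late 2-cell embryos it was 0.00 (-0.0020) over 5 other subunits, -0.06 over 13 translation factors and 0.13 over 23 assembly genes, beside 0.55 over the members. Over the 10 genes of mitochondrial transcription and its nuclear regulators tested at each stage, the median was -0.29 in zygotes and 0.19 in late 2-cell embryos. None of them passed in zygotes, and 6 had a positive value in late 2-cell embryos. The shares of all genes that passed are those given for the members above. In zygotes 1 of 5 other mitoribosome subunits was lower in R442Q, Gadd45gip1 of the large subunit, at 153 ± 28.2 CPM in WT (SD, n = 5) and 90.5 ± 11.3 in R442Q (SD, n = 6; log2 -0.76 ± 0.13 SE, edgeR adjusted p 0.0015). Of 20 assembly and rRNA modification genes 2 were lower and 1 higher, and of 12 translation factors none passed. In late 2-cell embryos none of the 5 other subunits and none of 13 translation factors passed, while 2 of 23 assembly genes were lower in R442Q. These were Noa1, a GTPase of small-subunit assembly (160 ± 21.8 against 61.0 ± 16.5 CPM, log2 -1.39 ± 0.29 SE, edgeR adjusted p 0.017), and Dhx30, an RNA helicase (log2 -2.02 ± 0.52 SE, edgeR adjusted p 0.044). Of 10 genes of mitochondrial transcription and its nuclear regulators 2 were lower: Polrmt, the mitochondrial RNA polymerase (58.3 ± 45.5 against 9.20 ± 4.34 CPM, log2 -2.66 ± 0.55 SE, edgeR adjusted p 0.017), and Nrf1, the factor whose site was searched for above, at 116 ± 38.3 CPM in WT (SD, n = 4) and 36.1 ± 14.0 in R442Q (SD, n = 5; log2 -1.68 ± 0.37 SE, edgeR adjusted p 0.023). Gabpa, the ETS-family factor, rose from 1.73 ± 1.48 CPM in WT zygotes to 292 ± 107 in WT late 2-cell embryos (log2 7.41 ± 0.60 SE, edgeR adjusted p 5.0e-10). Dap3, a small-subunit GTP-binding protein, fell over the same step by -3.17 ± 0.25 (SE), and Aurkaip1, also of the small subunit, rose by 3.21 ± 0.28 (SE). In blastocysts no gene of these lists passed.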

How the data were processed

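Single mouse embryos, 34 in all, were sequenced after SMART-seq2 amplification, Tn5 fragmentation and Nextera library preparation, per the labels' protocols. The submitters' processing notes name RSEM and the mm10 build, and give no roles for them; versions, annotation and use of strand are not given in the sources used here. The deposited tables for zygotes and late 2-cell embryos hold estimated counts per gene, not normalized, with decimals where reads were shared; the deposited FPKM tables hold values that the authors normalized to transcript length and library size, and for blastocysts only these were used. Positions, lengths and overlaps come from GENCODE M21 (GRCm38), which held all 78 members, and promoter sequences from RefSeq (GRCm38.p6).

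Counts were rounded and tested in R 4.3.3 with edgeR 4.0.16 (quasi-likelihood test, TMM scaling, filterByExpr with a minimum count of 10), each stage alone for genotype, and all 4 early groups together for stage changes and the interaction. For blastocysts limma 3.58.1 (trend = TRUE) was fitted to log2(FPKM + 1), keeping genes that reached FPKM 1 in 7 or more embryos; fold changes on that scale understate those of low genes. Adjustment was Benjamini-Hochberg over all genes tested, with a threshold of 0.05. The fits were tested on simulated data. CPM intervals and floors cover counting error only, and stages were set side by side on the TPM scale without a test. Stages and genotypes held separate embryos by label, so p-values measure the spread between these embryos.

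Members, lists and markers were chosen with earlier results of these data known. Members named were those past the threshold, or the 4 with the smallest p in each direction where more than 8 passed, and the 4 with the smallest p where fewer than 4 passed; for stage changes the 5 largest rises and falls with at least 10 CPM at the higher stage, for the interaction the 4 with the smallest p, and for levels the 3 highest and lowest. Alternatives were RLE scaling, DESeq2 1.42.0, other filters, FPKM in place of counts, equal FPKM sums, removal of the length and GC trend, a replicate block, other sets of embryos in the fit and leaving out each embryo. The block for the interaction was added after the data were seen. Every embryo entered its group as labelled.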

Additional observations from a re-analysis of the deposited data

Results flagged for a closer look

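Embryos far from the rest of their group were looked for in the named members and in the summed level. Of 71 groups of 4 to 7 embryos, 6 held such a value. At the 95% limit used chance alone would flag about 1 in 20 separate groups, but these groups share embryos across genes and some hold several zeros. The summed share of all members in WT late 2-cell replicate 3 was 4641 on the TPM scale, where the next WT embryo held 6755. Mrpl13 stood at 141 FPKM (141.15) in WT blastocyst replicate 6, where the next WT blastocyst held 245. R442Q zygote replicate 4 held 2.56 CPM of Mrps34 and 9.40 CPM of Mrpl41, where the next R442Q zygotes held 0.15 and 5.37. Mrpl20 stood at 1.67 CPM in R442Q zygote replicate 5, below 4.04 in the next. Mrpl48 stood at 63.3 CPM in R442Q late 2-cell replicate 1, above 36.9 in the next.

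Of the 11 members whose R442Q effect differed between zygotes and late 2-cell embryos in the direct test of that difference (edgeR interaction, log2, late 2-cell minus zygote), the 4 with the smallest p had values of 1.70 for Mrps22, 1.31 for Mrpl16, 1.35 for Mrps33 and 1.79 for Mrpl47. In each the effect was higher at the late 2-cell stage.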

How the results depend on the processing

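No named member reversed under any alternative run: 833 values kept their side of the threshold, 46 lost it and 3 gained it. In zygotes 22 members passed with limma on FPKM, with or without equal sums (13.9% and 14.3% of all genes), and 1 in the fit of both stages together (1.67% of all genes); without 1 embryo the count was 11 to 17, with 8.88% to 14.2% of all genes called. In late 2-cell embryos, against 3 in the main test, 9 passed with DESeq2 (11.5%, and 12% of all genes), 12 (11 higher, 1 lower) in the fit of both stages (15.4%, and 15.5% of all genes), 1 with no low-count filter (3.32% of all genes), 1 with the length and GC trend removed (1.47%) and 0 with equal FPKM sums (6.33%). The larger counts thus lie at the share of all genes in either direction, while of all genes 5.3% and 5.83% were higher with DESeq2 and in the fit of both stages; without 1 embryo the count was 1 to 6, with 0.967% to 6.76% of all genes called. For the interaction, against 11, 21 passed with DESeq2, all higher (7.01% of all genes), and 7 with the length and GC trend removed, all higher (2.89%); without 1 embryo the count was 10 to 22, with 6.76% to 14.6% of all genes called. For the stage changes the counts without 1 embryo were 49 to 57 in WT, with 56.2% to 64.2% of all genes called, and 55 to 62 in R442Q, with 62.7% to 66.2%, and removing the length and GC trend moved their medians to 0.00 (0.0046) and 0.64. Without 1 embryo the medians ranged from -0.27 to -0.20 in zygotes, 0.39 to 0.71 in late 2-cell embryos, 0.25 to 0.57 and 0.95 to 1.35 for the stage changes, 0.56 to 0.88 for the interaction and -0.01 to 0.11 in blastocysts, where every alternative run gave 0 calls. The median of all genes in zygotes was 0.01 on counts, -0.11 on FPKM and -0.12 on FPKM with equal sums, and in late 2-cell embryos 0.07, 0.02 and -0.19. Equal sums took the members' median in blastocysts from 0.05 to -0.02, and RLE scaling took the interaction's median over all genes from -0.16 to -0.01. The cause of these shifts was not tested.

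The replicate numbers of the titles were tried as pairs of WT and R442Q embryos. In zygotes and late 2-cell embryos they differ in part from the numbers in the sample descriptions. A pairing or block by those numbers was not tried. Deviations of genes from their group means correlated, between same-numbered embryos, from -0.06 to 0.06 in zygotes. The range was -0.14 to 0.21 in late 2-cell embryos and -0.17 to 0.20 in blastocysts. Zygote number 5, late 2-cell number 3 and blastocyst numbers 5 and 6 matched best with their own number, so pairing is not settled. With the replicate block 12 members passed in zygotes (9.91% of all genes), 0 in late 2-cell embryos (0.364%), 51 and 50 in the WT and R442Q stage changes (64.5% and 58.5%), 0 in blastocysts (0%) and 1 for the interaction (2.9%).

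Mrps34 rests on a few counts in zygotes, and Mrpl14, Mrps5 and Mrps31 were at 0 in 1 or 2 embryos of a late 2-cell group, where a count of 0 allows up to 0.524 CPM (3 counts).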

Other observations

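Among the 77 members tested at both early stages, 45 had a negative R442Q minus WT log2 fold change in zygotes and a positive one in late 2-cell embryos; among all 10853 genes tested at both stages 2811 did. Of the members lower in R442Q zygotes, Mrpl21, Mrpl22, Mrpl47 and Mrps22 were also among those with a higher effect in late 2-cell embryos by the interaction test. By calls alone, 8 members fell from zygote to late 2-cell in WT embryos and not in R442Q embryos (10.3%, and 4.54% of all genes: Mrpl9, Mrpl14, Mrpl32, Mrpl35, Mrpl47, Mrpl55, Mrps23 and Mrps31), and 10 rose in R442Q and not in WT (12.8%, and 6.44% of all genes: Mrpl4, Mrpl16, Mrpl17, Mrpl21, Mrpl33, Mrpl36, Mrpl37, Mrpl40, Mrpl50 and Mrpl58). The reverse was seen for 1 member in each direction, where 7.35% of all genes rose in WT and not in R442Q and 9.32% fell in R442Q and not in WT. Of the 8 and 10, the interaction itself passed for Mrpl16, Mrpl21, Mrpl32, Mrpl35 and Mrpl47.

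Slirp, a mitochondrial mRNA-binding protein, was the only other translation-factor gene listed whose R442Q effect was higher at the late 2-cell stage (interaction log2 2.41 ± 0.77 SE, edgeR adjusted p 0.048). Those of the assembly genes Dhx30 and Noa1 and of the regulators Nrf1 and Polrmt went the other way, with log2 values from -2.49 for Dhx30 to -1.51 for Nrf1. Another assembly gene, the rRNA methyltransferase Mrm2, was also called in that direction; it was at 0 in every R442Q late 2-cell embryo and at 7.26 ± 5.42 CPM in WT (SD, n = 4), so its fitted value of -9.86 ± 2.24 (SE) depends on the prior count. Trub2, a pseudouridine synthase acting on mitochondrial RNA, rose from 4.22 ± 1.39 to 164 ± 33.2 CPM from WT zygotes to WT late 2-cell embryos, and Tsfm, an elongation factor, fell from 47.8 ± 6.06 to 13.0 ± 1.31 (SD).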
